A study of Rattus norvegicus with 48 samples.

Results

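Recovery of the rat lung after repeated inhalation of oil vapor was examined by comparing lungs taken 28 days after the last exposure with lungs taken 1 day after it. All 12 rats of this comparison, 6 at each time, were male Sprague-Dawley animals of about 200 to 250 g that breathed oil vapor at 300 ppm for 6 h a day on 4 days a week for 4 weeks, which makes 16 exposure days. They were assigned to groups by their labels and are 12 of the 48 rats of the series. The comparison and the gene lists, however, were chosen with earlier results of these data known. Counts of list members set beside the share of all genes therefore describe the lists and test nothing. Further groups of 6 rats breathed filtered air on the same schedule and were killed at the same times. Their change over the same 27 days is given beside the main results, because time since exposure and age cannot be told apart within the oil vapor rats. Another pair of oil vapor groups, again 6 rats at each time, had received the same concentration for a single day. Each library was made from total RNA of a piece of lung of 1 rat after depletion of ribosomal RNA. The design holds 1 strain, 1 sex and 1 concentration, and the labels do not say which of the pair-housed rats shared a cage, so the tests measure the spread between rats as sampled.

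The gas-exchanging surface of the lung is made of flat alveolar type 1 cells and of cuboidal type 2 cells, which secrete surfactant and renew the type 1 cells after injury. Club, ciliated and mucous cells line the airways and carry much of the lung's capacity to metabolise inhaled chemicals. Alveolar macrophages take up surfactant, particles and inhaled lipid, and a single layer of mesothelial cells covers the pleural surface. In bulk tissue, fewer cells of a type and less RNA per cell cannot be told apart, which applies to every result below.

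The libraries held the transcripts that define lung in every rat: Sftpc, which encodes surfactant protein C of type 2 cells, ranged from 2907 to 7647 CPM over both oil vapor groups. Levels are given as CPM, a gene's count scaled to the TMM-normalized size of its library, and compare rats, not genes of different length. Gene totals were 6127124 to 6843758 counts in 4 of the oil vapor rats at 1 day and 4754160 to 6545860 in the 6 at 28 days, but 3605654 in animal 44 and 1537183 in animal 43. Animal 43 stood apart in other ways. Genes of the erythroid list took 5.02% of its counts and 0.191 to 0.548% of those of the other 5 rats at 1 day, against 0.203 to 0.359% at 28 days. Results that this rat moved most are therefore given with and without it. Summed liver transcripts also differed, at 210 to 1730 CPM in the 6 rats at 1 day and 242 to 288 CPM at 28 days. When the oil vapor rats of each schedule were put in order of animal number, rats of the same place had similar counts of the erythroid gene Alas2, with ratios of 0.974 to 1.39 over 12 pairs. The ratios were 0.98 to 1.49 for the interferon-induced gene Rsad2 and 0.742 to 2.68 for albumin (Alb), against 0.128 to 1.53 for Sftpc. Air rats put in such an order were also alike in Alas2. Their counts at 1 day were 1545, 3194, 3395, 2136, 11427 and 8081 in the single schedule. In the repeated schedule they were 1604, 3614, 3643, 2209, 12603 and 8741. At 28 days the counts were 9492, 3203, 2796, 4577, 4025 and 12412, and then 10458, 3424, 3170, 5054, 4402 and 13463. Summed ventricular muscle transcripts of air rats at 28 days were 33.1, 38.6, 807, 490, 226 and 210 CPM in the single schedule. In the repeated schedule they were 44.5, 51.5, 840, 535, 237 and 157 CPM. Oil vapor animals 5 and 43 were less alike, at 176 and 472 CPM. These orders were looked at after the values were seen and their source was not tested. The test between schedules took all 48 libraries as independent, which was not tested. The single schedule is not offered as a separate test of the blood, liver, heart or Rsad2 values.

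**Figure D1:**
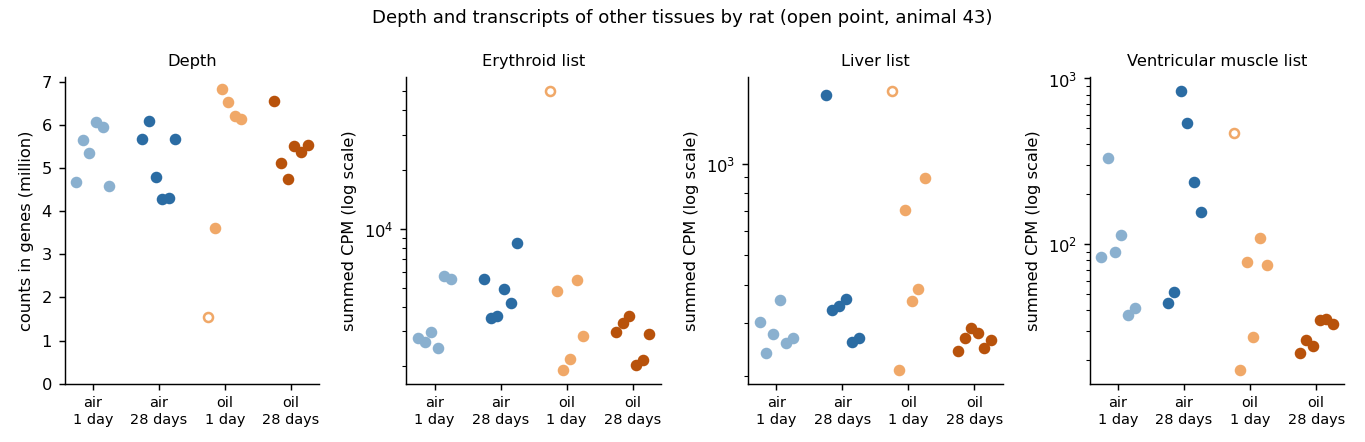
Total gene counts (linear axis) and summed CPM of the erythroid, liver and ventricular muscle lists (log axes) for each of the 24 rats of the repeated schedule; each point is 1 rat and the open point is animal 43. Animal 43 has the fewest counts, 1537183, and the highest erythroid share, 5.02%.

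Of 15005 genes tested, 51 differed between 28 and 1 day in the oil vapor lungs at an adjusted p below 0.05 (edgeR, quasi-likelihood F test, Benjamini-Hochberg), which is 0.34% of the genes. At 28 days 37 genes were higher (0.247%) and 14 lower (0.0933%). The split turned under some other fits, with 159 higher and 205 lower in DESeq2 and 186 higher and 244 lower with all 48 libraries. It did not turn with limma-voom and sample weights, at 148 higher and 84 lower. In DESeq2 without animal 43, a fit chosen after seeing the data, 188 were higher and 143 lower. The 37 higher genes had a median log2 fold change of 0.46 and a range of 0.22 to 1.68, and the 14 lower genes a median of -0.64 and a range of -4.45 to -0.34. The 6 rats at 28 days lay wholly above the 6 at 1 day for 32 of the 37 higher genes and wholly below them for 9 of the 14 lower genes. Of all genes 0.913% and 0.46% did so (1.37% in either direction). The called genes were picked by the test of the same rats, so these counts describe them and test nothing. Without animal 43 the test called 156 of 15090 genes (1.03%), 90 higher (0.596%) and 66 lower (0.437%), among them all 37 higher and 13 of the 14 lower genes. Albumin was the exception. The number called changed with the fit, and the cause of that was not tested. A fit on the 12 oil vapor libraries alone called 0 genes. It had 1486 at an unadjusted p below 0.05 (edgeR) and a smallest adjusted p of 0.112, while DESeq2 called 364. DESeq2 called all 51 genes in the same direction. With that small fit and without animal 43 the count was 100. Leaving out 1 rat at a time gave 4 genes (without animal 89) to 156, with a count over 1.5 times higher or lower for every rat but animal 46. The genes Alox5, Anpep, Cyp2b1 and Evpl were called in all 12 of those fits.

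**Figure D2:**
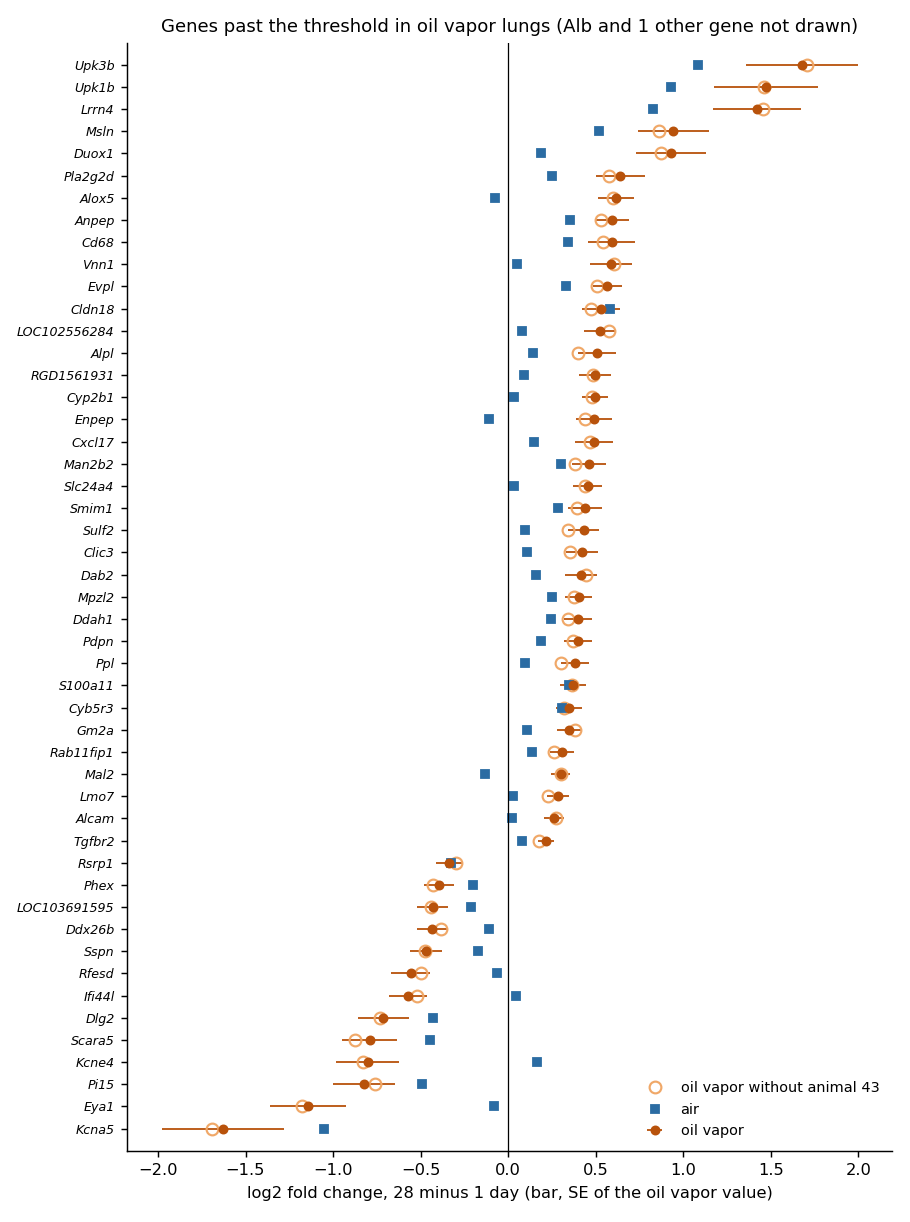
Log2 fold change from 1 to 28 days (x axis) of 49 of the 51 genes past the threshold (y axis) in oil vapor rats, with its SE as a bar, beside the value without animal 43 (open circles) and the value in air rats (squares). The values with and without animal 43 lie close together, and for 36 of the 37 higher genes the oil vapor value is farther from 0 than the air value; Alb, at -4.45, and 1 other gene are not drawn.

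The same genes had smaller values in air. In air, 34 of the 37 higher genes also had a value above 0, with a median of 0.15, and 11 of the 14 lower genes a value below 0, with a median of -0.19. Air lungs had 49 called genes of their own (0.327%), 40 higher (0.267%) and 9 lower (0.06%), and only 3 genes were called in the same direction in both (5.88% of the oil vapor calls and 6.12% of the air calls): the claudin gene Cldn18, S100a11 and Rsrp1. Most of the 51 genes began on one side of the air level and ended on the other. At 1 day 32 of the 37 higher genes were below air, with a median over all 37 of -0.20 on the log2 scale, and at 28 days 34 of them were above air, with a median over all 37 of 0.12. Of the 14 lower genes 12 were above air at 1 day, and all 14 were below air at 28 days. Since the genes were picked for a change over time in the oil vapor rats, these counts describe them and test nothing.

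Cyp2b1, a cytochrome P450 of the bronchiolar and alveolar epithelium that metabolises foreign chemicals, was the gene with the smallest p. Its lowest, median and highest levels were 267, 281 and 345 CPM in the 6 oil vapor rats at 1 day and 370.4, 396 and 494 CPM at 28 days, so the groups did not overlap. Air rats held 352 to 409.7 CPM at 1 day and 341 to 416 CPM at 28 days, and 5 of the 6 oil vapor rats at 1 day were below every air rat. Its log2 fold change was 0.49 ± 0.07 (SE; adjusted p = 0.00428, edgeR), and 0.03 ± 0.07 in air. Reads of Cyp2b1 may be shared with its near-identical Cyp2b neighbours, so the value may cover more than 1 gene. Mal2, a membrane protein of transport across epithelial cells, followed the same course. It stood at 229, 252 and 265 CPM at 1 day and 284, 308 and 326 CPM at 28 days, beside 286 to 360.3 and 283 to 302 CPM in air. Every oil vapor rat at 1 day was below every air rat of either time. Its rise was 0.30 ± 0.06 (adjusted p = 0.0254, edgeR), beside -0.13 ± 0.05 in air.

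**Figure D3:**
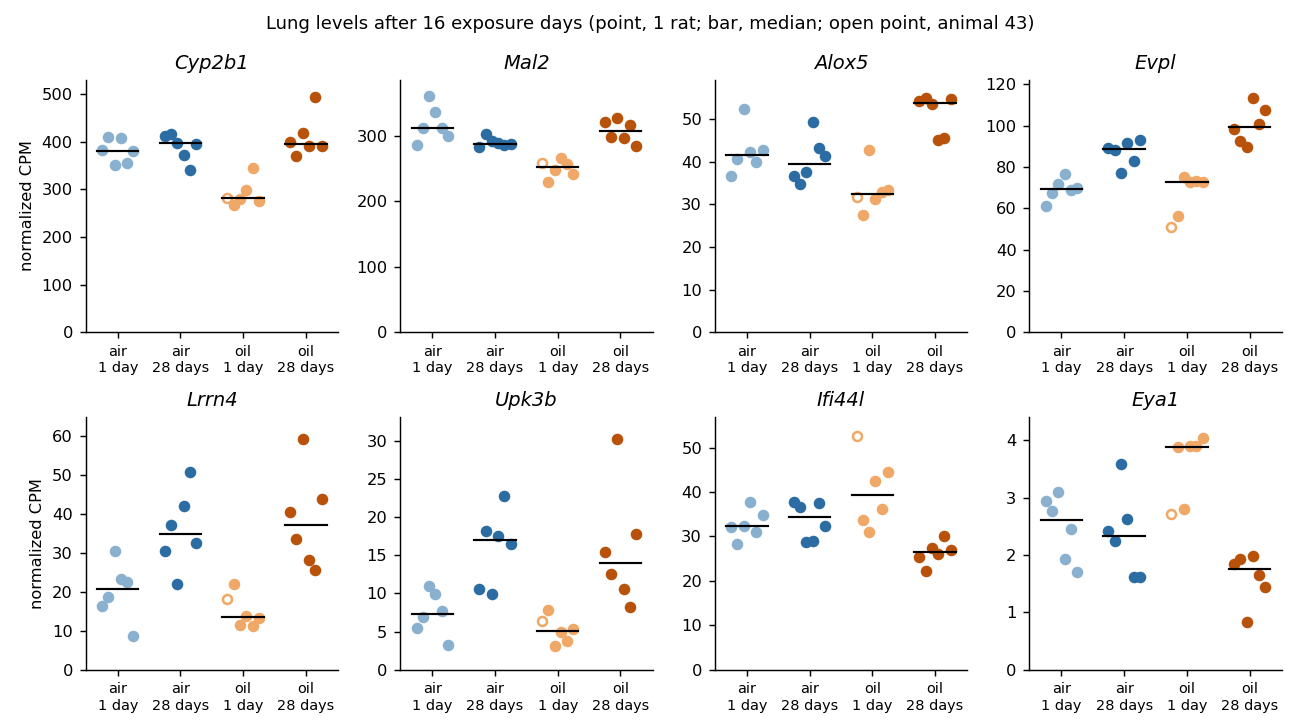
Normalized CPM (y axis, linear from 0) of 8 named genes in each rat of the 4 repeated-schedule groups (x axis); each point is 1 rat, bars are medians and the open point is animal 43. Cyp2b1 and Mal2 are low at 1 day in oil vapor rats. At 28 days they lie within the range of the air rats of both times pooled, apart from 2 rats for Cyp2b1 at 419 and 494 CPM. For Mal2 the oil vapor median at 28 days is above the highest air rat of that time. Alox5 is above the air medians at 28 days.

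Genes of cell contact and the epithelial barrier were among those that rose. Evpl and Ppl encode envoplakin and periplakin, partner proteins that tie intermediate filaments to desmosomes. Evpl stood at 50.8, 72.8 and 75 CPM at 1 day and 89.6, 99.6 and 113 CPM at 28 days, with no overlap, and changed by 0.57 ± 0.08 (adjusted p = 0.00428, edgeR) against 0.33 ± 0.08 in air. Ppl rose by 0.38 ± 0.08 (adjusted p = 0.0408), by 0.30 without animal 43 and by 0.10 ± 0.08 in air. Mpzl2, a homophilic adhesion protein of epithelia, went from a median of 50.9 to 67.6 CPM, a rise of 0.40 ± 0.08 beside 0.25 ± 0.08 in air. Cldn18, the tight-junction claudin of alveolar epithelium, rose by 0.53 ± 0.11 in oil vapor and by 0.58 ± 0.11 in air, about as much in both. Other genes past the threshold, picked out here after their values were seen, were the adhesion gene Alcam (0.26), Lmo7 (0.28), the recycling-endosome gene Rab11fip1 (0.31) and Duox1, which makes hydrogen peroxide at airway surfaces (0.93). Without animal 43 the desmosome gene Dsp (0.29 ± 0.06, adjusted p = 0.0262) and the tight-junction genes Cgn (0.28) and Cgnl1 (0.27) passed as well, also picked after their values were seen. With it their adjusted p values were 0.0784, 0.0571 and 0.0571.

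Most alveolar genes had values above 0, though few passed the test. Of the alveolar type 1 list, 2 of 16 tested members were called higher, against 0.247% of all genes. They were Pdpn, the podoplanin that marks the type 1 cell surface, and Cldn18. Pdpn stood at 361, 379 and 468 CPM at 1 day and 453, 531 and 549 CPM at 28 days and rose by 0.40 ± 0.08 (adjusted p = 0.0333, edgeR), beside 0.19 ± 0.08 in air. The groups met at a single pair of rats. The receptor gene Ager had 711, 1266 and 1493 CPM and then 1466, 1665 and 1831 CPM, a difference of 0.42 ± 0.12 that did not pass (adjusted p = 0.106). Animal 43 was its lowest rat at 1 day, and without it the difference was 0.30 ± 0.08 (adjusted p = 0.0695). Sema3e gave 0.20 ± 0.05 (adjusted p = 0.0798), and passed without animal 43 at 0.22. The list's median was 0.20, 0.19 without animal 43 and 0.09 in air, where all genes tested had -0.01.

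None of the 17 tested members of the type 2 and surfactant list passed with all rats, although 16 had a value above 0 (47.6% of all genes did) and 11 an unadjusted p below 0.05 upward (7.01% of all genes). Without animal 43 all 17 were above 0 and 9 had an unadjusted p below 0.05, against 48.1% and 6.91% of all genes. Sftpc stood at 2907, 5292 and 5805 CPM at 1 day and 6450, 6821 and 7647 CPM at 28 days. These groups did not overlap, and air rats held 4883 to 6808 and 5538 to 6987 CPM. The difference was 0.55 ± 0.13 (adjusted p = 0.06, edgeR) with animal 43 and 0.43 ± 0.10 (adjusted p = 0.0383) without it. Sftpa1, for surfactant protein A, gave 0.48 ± 0.11 (adjusted p = 0.0571) and 0.40 ± 0.10 without it (adjusted p = 0.0497). Lamp3, a protein of the lamellar bodies in which surfactant is stored, gave 0.28 ± 0.13 with animal 43 (adjusted p = 0.311) and 0.41 ± 0.10 without it (adjusted p = 0.0473). Without animal 43 these 3 of 17 passed, all upward, against 0.596% of all genes. Slc34a2, the phosphate carrier of type 2 cells, gave 0.44 ± 0.12 (adjusted p = 0.086). The list median was 0.28, 0.27 without animal 43 and 0.10 in air. Animal 44 held 1.62% of its counts in this list and the other 4 rats at 1 day 2.37 to 2.96%. Without animals 43 and 44, chosen after seeing the data, 0 of 17 passed, with 7 at an unadjusted p below 0.05, and the median was 0.18. Alpl, the alkaline phosphatase of type 2 cells, was called higher at 0.51 ± 0.11, or 0.40 without animal 43, beside 0.14 ± 0.11 in air.

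The airway lists for club and ciliated cells did not share that direction, and that for mucus and goblet cells was mixed. Of the club cell list, 9 of 10 tested members had values below 0. Its median was -0.78, -0.70 without animal 43 and -0.48 in air. Yet the 1 called member, Cyp2b1, was higher, as were 0.247% of all genes. The club cell secretoglobin gene Scgb1a1 stood at 1921 to 3360 CPM at 1 day and 1926 to 2478 CPM at 28 days, a difference of -0.15 ± 0.12 (adjusted p = 0.613). Krt15, a keratin of basal cells, gave -1.01 ± 0.32 (adjusted p = 0.139). The ciliated list had 0 of 18 members called with edgeR and a median of -0.18 against -0.20 in air. Its 1 member at an unadjusted p below 0.05 was lower (7.94% of all genes). On the mucus and goblet list 3 of 7 tested members had values above 0 and 4 below. With all rats 0 passed, and 2 had an unadjusted p below 0.05 (edgeR), both upward (7.01% of all genes). The list median was -0.04, -0.13 without animal 43 and -0.58 in air. Without animal 43, 1 of 7 passed upward (0.596% of all genes), and the highest value was 1.36. Cxcl17, a chemokine of mucosal epithelia, was called higher at 0.49 ± 0.11 beside 0.15 ± 0.11 in air, with 38 to 61.9 CPM at 1 day and 69.5 to 83 CPM at 28 days.

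Among the called genes, mesothelial genes had the largest rises. The promoters of 3 of them are shown because the genes moved together: the 250 bases before the annotated start, read 5′ to 3′ on the gene's strand, from RefSeq for the assembly GRCr8, with matches to the TEAD-factor motif CATTCC (either strand, GGAATG on the other) in capitals.
Lrrn4, chr3:140603987-140604236, minus strand: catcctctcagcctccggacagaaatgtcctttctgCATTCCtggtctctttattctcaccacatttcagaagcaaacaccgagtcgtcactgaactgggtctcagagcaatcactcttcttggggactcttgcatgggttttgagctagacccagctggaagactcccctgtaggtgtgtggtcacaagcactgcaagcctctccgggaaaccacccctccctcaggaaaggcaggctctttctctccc
Upk3b, chr12:26274241-26274490, minus strand: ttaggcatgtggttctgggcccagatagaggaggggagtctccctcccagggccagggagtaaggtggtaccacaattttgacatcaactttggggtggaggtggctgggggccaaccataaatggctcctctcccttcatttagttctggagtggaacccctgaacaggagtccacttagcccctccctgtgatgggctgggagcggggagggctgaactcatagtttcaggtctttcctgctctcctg
Upk1b, chr11:75459131-75459380, plus strand: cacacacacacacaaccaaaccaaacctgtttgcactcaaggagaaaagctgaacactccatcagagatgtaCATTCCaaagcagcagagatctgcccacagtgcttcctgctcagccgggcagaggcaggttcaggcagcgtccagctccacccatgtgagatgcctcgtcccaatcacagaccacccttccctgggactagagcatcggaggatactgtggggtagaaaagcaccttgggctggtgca
The motif was found once for Lrrn4, 214 bases before the start, once for Upk1b, 178 bases before it, and 0 times for Upk3b. Of all 33469 promoters in the table, 12.1% held it in the same window. The 3 genes were picked for their change, and the promoter of Msln, another called mesothelial gene, was not looked at by itself. The match of letters is a description and not a test of binding. The TATA box TATAAA and the GC box GGGCGG, each searched on both strands, were in 0 of these 3 windows and in 12.9% and 30.5% of all.

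Lrrn4, a leucine-rich repeat protein found on mesothelium, stood at 11.2, 13.5 and 21.9 CPM in oil vapor rats at 1 day and 25.6, 37.2 and 59.4 CPM at 28 days. The uroplakin gene Upk3b, a marker of the same layer, stood at 3.08, 5.14 and 7.78 CPM and then 8.27, 13.9 and 30.2 CPM. Its relative Upk1b stood at 3.64, 4.38 and 6.62 CPM and then 8.83, 12.3 and 18.1 CPM. In all 3 genes every rat at 28 days was above every rat at 1 day. Their log2 fold changes were 1.42 ± 0.25, 1.68 ± 0.32 and 1.47 ± 0.30 (adjusted p = 0.0235, 0.0278 and 0.0333, edgeR), and 1.46, 1.71 and 1.46 without animal 43. Msln, for mesothelin, rose by 0.94 ± 0.20 (adjusted p = 0.0408) beside 0.52 ± 0.20 in air, with 5.45 to 16.9 CPM at 1 day and 17.5 to 36.9 CPM at 28 days. These were the 4 called members of 8 tested, all higher, against 0.247% of all genes. Wt1, a transcription factor of mesothelium, missed the threshold at 1.43 ± 0.33 (adjusted p = 0.054, edgeR) but passed without animal 43. Bnc1 and Calb2, also on the list of 10, were too low to test. Cpxm1 gave -0.27, the 1 member below 0.

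The summed level of the mesothelial list was 112 to 261 CPM in oil vapor rats at 1 day and 273 to 408 CPM at 28 days, so the ranges did not overlap, and 242 to 326 and 264 to 392 CPM in air. The same 3 genes also had values above 0 in air, though none passed there: Lrrn4 gave 0.82 ± 0.24, Upk3b 1.09 ± 0.29 and Upk1b 0.93 ± 0.27 (adjusted p = 0.163, 0.124 and 0.152). The oil vapor values exceeded the air values by 0.60 ± 0.35, 0.59 ± 0.43 and 0.54 ± 0.40, and no such difference passed the test (adjusted p = 0.714, 0.78 and 0.78). The list median was 1.18, 1.13 without animal 43 and 0.66 in air. How much pleural surface each piece of lung carried is not given in the sources used here. Muc16, a membrane mucin of mesothelium and airway, gave 1.22 ± 0.31 (adjusted p = 0.0758), and passed without animal 43 at 1.36.

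Several enzymes of leukocytes and of the cell surface were higher at 28 days, and they were grouped here after their values were seen. Alox5, the 5-lipoxygenase that begins leukotriene synthesis in myeloid cells, stood at 27.5, 32.4 and 42.7 CPM at 1 day and 45.2, 53.9 and 55 CPM at 28 days without overlap. Air rats showed no such step, with 36.7 to 52.3 CPM at 1 day and 34.9 to 49.3 CPM at 28 days. Its change was 0.62 ± 0.10 in oil vapor (adjusted p = 0.0122, edgeR) and -0.07 ± 0.10 in air. The difference between them was 0.69 ± 0.14 (unadjusted p = 6.97e-05, adjusted p = 0.12), so it did not pass. Anpep, or aminopeptidase N, is carried by myeloid cells and epithelium. It stood at 137, 180.1 and 202 CPM and then 234, 269 and 309.8 CPM, a rise of 0.59 ± 0.10 (adjusted p = 0.0111) beside 0.35 ± 0.10 in air, and 0.53 ± 0.09 without animal 43. Enpep, aminopeptidase A, rose by 0.49 ± 0.10 beside -0.11 ± 0.10 in air, with 54.5 to 92.4 CPM at 1 day and 78.7 to 111 CPM at 28 days. Vnn1, a pantetheinase, rose by 0.59 ± 0.12 and Pla2g2d, a secreted phospholipase, by 0.64 ± 0.14, where air gave 0.05 ± 0.12 and 0.25 ± 0.14.

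Several of the called genes act in lysosomes. Gm2a, the activator protein for breakdown of the ganglioside GM2, stood at 139.7, 163 and 189 CPM at 1 day and 187, 211 and 224 CPM at 28 days and rose by 0.35 ± 0.07 (adjusted p = 0.0333, edgeR), beside 0.11 ± 0.07 in air. The groups overlapped with animal 43 and did not without it. Man2b2, a lysosomal mannosidase, rose by 0.46 ± 0.10, beside 0.30 ± 0.10 in air. Cd68, a lysosomal membrane protein of macrophages, stood at 18.1 to 35.6 CPM at 1 day and 37 to 48.9 CPM at 28 days, a rise of 0.59 ± 0.13 (adjusted p = 0.0495) beside 0.34 ± 0.13 in air. These 3 genes were grouped after their values were seen. Sulf2, which trims sulfate from heparan sulfate, stood at 77.1, 124 and 138 CPM and then 147, 162 and 173 CPM. It rose by 0.43 ± 0.09 with animal 43, its lowest rat at 1 day, by 0.34 ± 0.06 without it and by 0.10 ± 0.09 in air. Slc24a4, a sodium, calcium and potassium exchanger, stood at 16.4, 19.5 and 23.4 CPM and then 26.5, 27.7 and 28.9 CPM, a rise of 0.45 ± 0.08 beside 0.03 ± 0.08 in air.

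Cd68 was the 1 called member of 14 tested on the alveolar macrophage list, against 0.247% of all genes called higher. The list median was 0.25, 0.25 without animal 43 and 0.14 in air. The mannose receptor gene Mrc1 stood at 121 to 221 CPM at 1 day and 230.2 to 266 CPM at 28 days, and the cholesterol exporter gene Abcg1 at 116 to 179.7 and 184 to 226 CPM. Neither pair of groups overlapped, but the differences of 0.40 ± 0.11 and 0.40 ± 0.11 did not pass (adjusted p = 0.0892 and 0.094, edgeR). Of the lipid-laden macrophage list 0 of 19 tested members passed. An unadjusted p below 0.05 (edgeR) was reached by 4 upward and 1 downward, against 7.01% and 7.94% of all genes. Soat1, which stores cholesterol as esters, gave 0.22 ± 0.06 and Spp1, for osteopontin, -1.29 ± 0.39 (adjusted p = 0.091 and 0.117). Spp1 stood at 3.06, 11.7 and 14.5 CPM at 1 day and 1.25, 4.16 and 7.85 CPM at 28 days. Most mast cell genes had values above 0, with wide spread. The IgE-receptor gene Ms4a2 stood at 0.323, 1.45 and 1.95 CPM and then 0.962, 3.42 and 6.46 CPM, and its difference of 1.62 ± 0.42 did not pass (adjusted p = 0.0798). The tryptase gene Tpsb2 gave 1.49 ± 0.45 and Hdc, which makes histamine, 0.62 ± 0.20. The list median was 0.75, 0.75 without animal 43 and 0.25 in air, and 0 of 11 members passed. Here 5 members upward and 1 downward had an unadjusted p below 0.05, against the same shares of all genes. Alox15, on the same list, gave -3.21 with animal 43, its outlying rat, and -0.50 without it.

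Genes that were lower at 28 days included developmental, stromal and channel genes. Eya1, a transcription coactivator and phosphatase of organ development, stood at 2.72, 3.89 and 4.04 CPM at 1 day and 0.833, 1.75 and 1.98 CPM at 28 days, with no overlap. Its log2 fold change was -1.14 ± 0.22 (adjusted p = 0.0284, edgeR), while air gave -0.08 ± 0.21. Scara5, a ferritin receptor of fibroblast-like cells, stood at 14.5, 31.3 and 32.2 CPM and then 14.8, 15.8 and 18 CPM. Its change was -0.79 ± 0.16 with animal 43, which was its lowest rat at 1 day, -0.87 ± 0.14 without it and -0.44 ± 0.16 in air. Sspn, a member of the dystrophin-associated complex, changed by -0.47 ± 0.09 (adjusted p = 0.0284) with 34.6 to 44.7 CPM at 1 day and 22.7 to 29.6 CPM at 28 days, without overlap, and air gave -0.17 ± 0.09. Dlg2, a scaffold protein of membranes, changed by -0.71 ± 0.15, and Pi15, a secreted peptidase inhibitor, by -0.82 ± 0.18, where air gave -0.43 ± 0.14 and -0.49 ± 0.17. The potassium channel gene Kcna5, known from pulmonary artery muscle and heart atrium, changed by -1.63 ± 0.35, at levels of 0.907 to 3.36 CPM at 1 day and 0.385 to 0.919 CPM at 28 days that rest on 2 to 5 counts a rat at 28 days and on 1 count in animal 43. In air Kcna5 gave -1.05 ± 0.36. Kcne4, a partner subunit of such channels, was picked after its value was seen and changed by -0.80 ± 0.18 beside 0.16 ± 0.18 in air.

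The remaining named genes were lower by less. Phex, an endopeptidase of phosphate balance, changed by -0.40 ± 0.09 (adjusted p = 0.0457, edgeR), with 36.3 to 50.5 CPM at 1 day and 28.3 to 39.7 CPM at 28 days with overlap, and air gave -0.20 ± 0.09. Ddx26b, which encodes a relative of an Integrator complex subunit, changed by -0.43 ± 0.09 and Rfesd, an iron-sulfur domain protein, by -0.56 ± 0.11, or -0.50 ± 0.10 without animal 43, where air gave -0.11 ± 0.08 and -0.06 ± 0.11. Rsrp1, an arginine- and serine-rich protein, changed by -0.34 ± 0.07 in oil vapor and -0.33 ± 0.07 in air, about the same in both. Dpt, a matrix protein of fibroblasts, stood at 123, 163 and 177 CPM and then 77.8, 116 and 132 CPM, and its difference of -0.48 ± 0.14 did not pass (adjusted p = 0.105) except without animal 43 (adjusted p = 0.0495). On the fibroblast list as a whole 8 of 15 members had values above 0 and 7 below, with a median of 0.02.

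Most collagen genes of fibrils had values below 0. Of 12 fibrillar and fibril-associated collagen genes tested, 11 had values below 0 (52.4% of all genes did) and 0 passed with all rats. An unadjusted p below 0.05 (edgeR) was reached by 3 downward and 1 upward, against 7.94% and 7.01% of all genes. Col3a1, Col14a1 and Col5a1 passed once animal 43 was left out, all downward, against 0.437% of all genes. Col3a1, for the collagen of distensible tissue, stood at 1522, 2680 and 3142 CPM at 1 day, where animal 43 was lowest, and 1785, 2025 and 2267 CPM at 28 days. It gave -0.34 ± 0.13 (adjusted p = 0.213, edgeR) with animal 43 and -0.46 ± 0.09 (adjusted p = 0.0213) without it. In air it gave -0.41 ± 0.13, a value of the same size. Col14a1 gave -0.48 ± 0.14 and -0.54 ± 0.13 without animal 43, beside -0.27 ± 0.13 in air. The list median was -0.14, -0.25 without animal 43 and -0.14 in air. Dcn, for the collagen-binding proteoglycan decorin, stood at 133, 136 and 224 CPM and then 78.7, 98 and 138 CPM, and gave -0.63 ± 0.16 (adjusted p = 0.0758), -0.67 ± 0.16 (adjusted p = 0.0414) without animal 43 and -0.44 ± 0.16 in air. Elastin (Eln) gave -0.03 ± 0.14 (adjusted p = 0.962) and Timp1, an inhibitor of matrix proteases, 0.42 ± 0.12 (adjusted p = 0.112). Cnn1, a calponin of smooth muscle, gave -0.40 ± 0.17 and passed without animal 43 at -0.52 ± 0.12, beside -0.45 ± 0.17 in air. Tgfbr2, a TGF-beta receptor, was called higher at 0.22 ± 0.05, the smallest of the 37 rises, or 0.18 ± 0.03 without animal 43, beside 0.08 ± 0.05 in air.

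**Figure D4:**
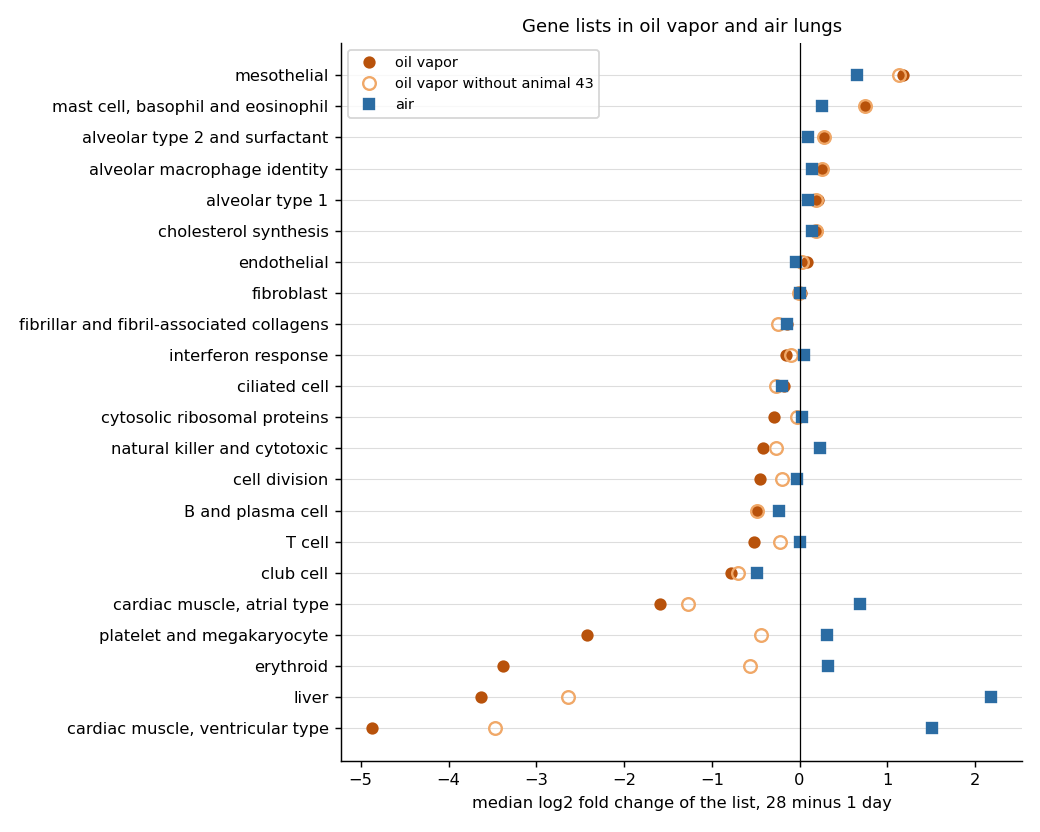
Median log2 fold change from 1 to 28 days (x axis) of 22 gene lists (y axis) in oil vapor rats, in oil vapor rats without animal 43 (open circles) and in air rats (squares); a point summarises the tested members of a list and carries no test. The erythroid median moves from -3.38 to -0.56 when animal 43 is left out, and the mesothelial median from 1.18 to 1.13.

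Most lymphocyte genes had values below 0, and none passed with all rats. On the B and plasma cell list 15 of 16 tested members had values below 0 and 11 an unadjusted p below 0.05 downward (7.94% of all genes), but 0 passed (edgeR). Without animal 43, 14 were below 0 and 11 had such a p, against 51.9% and 6.97% of all genes. In that fit 1 of 16 passed, downward, against 0.437% of all genes. The BAFF receptor gene Tnfrsf13c stood at 3.13, 4.41 and 5.45 CPM at 1 day and 0.924, 1.85 and 2.88 CPM at 28 days, without overlap, at -1.15 ± 0.31 (adjusted p = 0.0849). Cd79b, a B cell receptor subunit, gave -1.01 ± 0.25 and -0.82 ± 0.21 without animal 43 (adjusted p = 0.0685 and 0.0504). The list median was -0.49, -0.48 without animal 43 and -0.24 in air. T cell genes depended more on that rat. Their median was -0.52, -0.22 without animal 43 and 0.01 in air. Bcl11b, a T cell transcription factor, gave -0.77 ± 0.26 and -0.46 ± 0.17 without it. Cytotoxic cell genes had a median of -0.41, -0.27 without animal 43 and 0.23 in air, which are medians of opposite sign in oil vapor and air, and the protease gene Ctsw gave -0.91 ± 0.30 in oil vapor and 0.38 ± 0.29 in air. None of these members passed in the test of oil vapor against air.

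Ifi44l, an interferon-induced gene, was the 1 called member of 37 tested on the interferon list, against 0.0933% of all genes called lower. Its promoter is shown because its letters match the response element of interferon-induced genes, which is a description and not a test of binding. The window is the same as above, with matches to the element (GAAA, any 2 bases, then GAAA) on either strand in capitals.
Ifi44l, chr2:243328473-243328722, plus strand: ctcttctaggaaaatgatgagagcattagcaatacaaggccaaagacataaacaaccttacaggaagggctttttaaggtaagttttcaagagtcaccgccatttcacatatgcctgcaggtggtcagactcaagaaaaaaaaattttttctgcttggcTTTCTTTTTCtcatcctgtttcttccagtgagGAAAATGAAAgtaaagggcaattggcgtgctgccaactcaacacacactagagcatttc
The 2 matches lie 91 bases before the start on the opposite strand and 59 bases before it on the gene's strand, and 3.41% of all promoters held at least 1. Ifi44l stood at 30.9, 39.2 and 52.6 CPM at 1 day and 22.3, 26.4 and 30.1 CPM at 28 days without overlap, beside 28.3 to 37.7 and 28.7 to 37.8 CPM in air. It changed by -0.57 ± 0.11 (adjusted p = 0.0284, edgeR) and by -0.52 ± 0.10 without animal 43. In air it gave 0.04 ± 0.11, and the difference of -0.62 ± 0.15 did not pass (adjusted p = 0.228). Of the 37 members 34 had values below 0, or 33 without animal 43, with a median of -0.15, -0.10 without animal 43 and 0.05 in air. Herc6 gave -0.41 ± 0.10 (adjusted p = 0.0718). The antiviral gene Rsad2 gave -4.05 ± 0.97 with animal 43 and -0.94 ± 0.48 without it, and the regulator gene Irf7 -1.82 ± 0.58 and -0.20 ± 0.23. Both were high in the erythroid-rich library of animal 43, at 8831 and 1029 CPM, against group medians of 251 and 68.7 CPM.

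Transcripts of blood-forming tissue, liver and heart had lower values at 28 days in oil vapor rats, by amounts that rest on a few rats. The erythroid list had a median of -3.38, -0.56 without animal 43 and 0.32 in air. With all rats 0 of 16 members were called and 14 had an unadjusted p below 0.05 downward (edgeR), against 7.94% of all genes. Alas2, of heme synthesis, stood at 68.7, 679.9 and 27240 CPM at 1 day and 80.7, 312 and 619.7 CPM at 28 days, and the globin gene Hbb at 646, 1489 and 23770 and 614, 1029 and 1191 CPM. Their differences were -4.04 ± 1.06 and -2.42 ± 0.65 with animal 43 and -0.69 ± 0.57 and -0.54 ± 0.30 without it (adjusted p = 0.644 and 0.456). Platelet genes had a median of -2.43, -0.43 without animal 43 and 0.31 in air. Albumin was the 1 called liver gene of 13 tested, against 0.0933% of all genes called lower. It stood at 24.7, 137 and 991 CPM at 1 day and 7.5, 8.83 and 26.2 CPM at 28 days. Its change was -4.45 ± 0.98 (adjusted p = 0.0448, edgeR), or -3.44 ± 0.87 (adjusted p = 0.0504) without animal 43. The groups overlapped. In air it went the other way, at 2.73 ± 0.89, where 1 rat at 28 days had 672 CPM. Ttr, for the carrier protein transthyretin, gave -4.16 ± 1.03 with groups that did not overlap, and Fgb, for fibrinogen, -4.39 ± 1.11 (adjusted p = 0.0692 and 0.0718). Without animal 43 they gave -3.37 ± 0.91 and -3.54 ± 0.98, and in air 2.44 ± 0.91 and 2.23 ± 0.98. The liver list had a median of -3.63, -2.64 without animal 43 and one above 0 in air. Ventricular muscle genes had a median of -4.87, -3.48 without animal 43 and 1.51 in air, and Myh7 stood at 0.278 to 217 CPM at 1 day and 0 to 1.44 CPM at 28 days. Fgb and Myh7 were at 0 counts in at least 1 rat at 28 days.

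Cell division genes had 30 of 33 values below 0 and 0 called, with a median of -0.45, -0.20 without animal 43 and -0.03 in air. An unadjusted p below 0.05 (edgeR) was reached by 11 downward and 1 upward, against 7.94% and 7.01% of all genes. Without animal 43 it was 4 and 1 of 34, against 6.97% and 6.91%. The erythroid share of animal 43 moved with these genes, and its part in them was not tested: Ube2c gave -3.16 with that rat and -0.36 without it, and Tk1 -2.21 and -0.30. Ccna2, for cyclin A2, gave -0.65 ± 0.21 and -0.60 ± 0.21, so its value depended little on that rat, but neither passed (adjusted p = 0.139 and 0.171, edgeR). Cytosolic ribosomal protein genes had 25 of 25 values below 0 with animal 43 and 16 of 25 without it, with medians of -0.29 and -0.03. The neutrophil list's median changed sign with that rat, from -0.10 to 0.12 without it.

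Lists of metabolism and stress held few called genes. On the cholesterol list 20 of 22 tested members had values above 0, 3 an unadjusted p below 0.05 upward (7.01% of all genes) and 0 passed (edgeR). In air all 22 were above 0, as were 49.5% of all genes, with medians of 0.20 in oil vapor and 0.14 in air. The desaturase gene Scd gave 0.38 ± 0.11 (adjusted p = 0.112). Among genes that handle foreign chemicals, Sult1a1, a sulfotransferase, gave 0.36 ± 0.10 and passed without animal 43 at 0.40 ± 0.09. Cyp1b1, a target of the aryl hydrocarbon receptor, gave -0.56 ± 0.17, passed without animal 43 at -0.64 ± 0.15, and was called in air at -0.78 ± 0.17. Cyp1a1, of the same receptor, stood at 3.28, 4.19 and 18.1 CPM and then 0.385, 2.38 and 6.11 CPM, beside 4.59 to 12 and 0.694 to 4.07 CPM in air, and gave -1.20 ± 0.50 and -1.85 ± 0.52 (adjusted p = 0.257 and 0.143). On the NRF2 list of antioxidant defence 0 of 19 members passed, and the median was -0.12 with animal 43 and 0.01 without it. With that rat 5 members had an unadjusted p below 0.05 (edgeR), all downward (7.94% of all genes). Without it 1 was downward (6.97% of all genes) and 2 were upward (6.91%). Me1, the malic enzyme, gave -0.50 ± 0.16 (adjusted p = 0.133) and -0.32 ± 0.10 without animal 43. The chaperone list had 18 of 23 values above 0 and a median of 0.11, beside 0.11 in air. On it 0 were called and 6 had an unadjusted p below 0.05 (edgeR), all upward (7.01% of all genes).

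Whether the time change differed between oil vapor and air was tested for each gene, and 1 of 15005 passed (0.00666%). That gene was Ptprt, a receptor-type tyrosine phosphatase. It stood at 2.25, 3.47 and 3.89 CPM at 1 day and 3.66, 4.68 and 6.01 CPM at 28 days in oil vapor, and at 4.92, 6.41 and 7.45 and then 2.74, 3.22 and 4.64 CPM in air. At 1 day every air rat was above every oil vapor rat, and at 28 days 3 of 6 oil vapor rats were above every air rat. The changes were 0.56 ± 0.17 in oil vapor (adjusted p = 0.121, edgeR) and -0.86 ± 0.16 in air (adjusted p = 0.0195), and they differed by 1.42 ± 0.24 (adjusted p = 0.0472). The call was lost with RLE size factors (adjusted p = 0.0517), and leaving out 1 rat at a time gave adjusted p values of 0.0192 to 0.145. Without animal 43, 3 genes passed (0.0199%): Ptprt at 1.43 ± 0.24, and Mal2 at 0.43 ± 0.08 (adjusted p = 0.0348). Eml2, which did not pass with all rats and is named after its value was seen, was the other gene called, at -0.68 ± 0.12. Cdhr2, a cadherin of microvilli, gave 1.89 ± 0.36 and did not pass (adjusted p = 0.085). Its levels were 1.41 to 2.4 and 2.69 to 3.96 CPM in oil vapor and 1.89 to 5.11 and 0.633 to 2.6 CPM in air. The liver genes Alb and Bhmt gave -7.18 ± 1.32 and -6.73 ± 1.39 (adjusted p = 0.0691 and 0.12). Of the 51 genes called in oil vapor, 26 had an unadjusted p below 0.05 for the difference from air, against 1171 of all 15005 genes. Of these 51 genes 0 passed in the edgeR fit with all rats. They were picked for their change in oil vapor, which is part of that difference, so the 26 describe them and test nothing.

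After a single exposure 1398 of 14820 genes were called between 28 and 1 day in the oil vapor lungs (9.43%). Of these 660 were higher (4.45%) and 738 lower (4.98%). That schedule had its own fit and estimate of the spread, so 1398 and 51 are not like counts. The repeated schedule gave 156 without animal 43 and 430 with all 48 libraries. The change in air lungs of the single schedule was not fitted here, so the 1398 include any change with age. Of the 51 genes of the repeated schedule 12 were called in single-schedule oil vapor lungs in the same direction. That is 23.5% of them and 0.858% of the single-schedule calls. The difference between schedules was called for 142 of 15322 genes (0.927%), and for 298 (1.94%) without animal 43. Of the 51 genes 11 were among the 142, each changing more after repeated exposure. The 51 were picked for their change in that schedule, which is part of the difference, so this count describes them and tests nothing. Alox5 gave 0.62 ± 0.10 after repeated and -0.03 ± 0.10 after single exposure, a difference of 0.64 ± 0.14 (adjusted p = 0.0193, edgeR). Lrrn4 gave 1.42 ± 0.25 and -0.37 ± 0.35, a difference of 1.79 ± 0.46 (adjusted p = 0.0459). Gm2a gave 0.35 ± 0.07 and -0.10 ± 0.07. The mesothelial list as a whole had a median of 1.18 after repeated and -0.33 after single exposure, and 1 of its 8 members, Lrrn4, passed for the difference. Cyp2b1, by contrast, rose in both, by 0.49 ± 0.07 and 0.39 ± 0.11, and its difference of 0.10 ± 0.14 did not pass (adjusted p = 0.779).

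**Figure D5:**
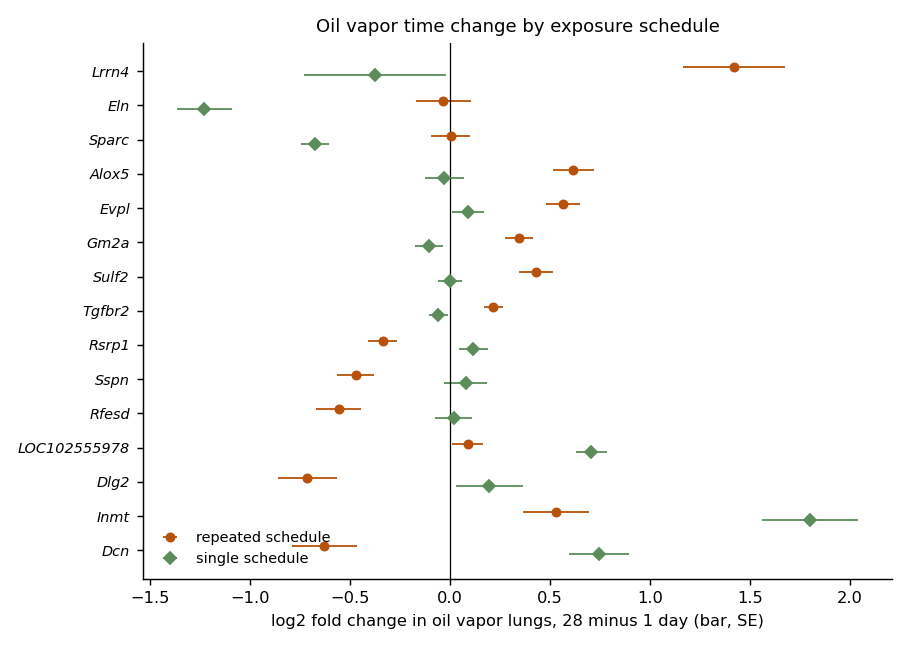
Log2 fold change from 1 to 28 days in oil vapor lungs (x axis), with its SE as a bar, for 15 genes (y axis) whose difference between schedules passed the threshold; circles are the repeated and diamonds the single schedule. Eln and Sparc sit near 0 after repeated exposure and well below it after a single one, and Dcn and Inmt lie to the left of their single-schedule values.

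Among the genes with the smallest p for that difference were matrix genes. Eln gave -0.03 ± 0.14 after repeated and -1.23 ± 0.14 after single exposure, a difference of 1.19 ± 0.20 (adjusted p = 0.0026, edgeR). Sparc, a collagen-binding glycoprotein, gave 0.0042 ± 0.10 and -0.67 ± 0.07, a difference of 0.67 ± 0.12 (adjusted p = 0.0041). Dcn took opposite directions, at -0.63 ± 0.16 and 0.75 ± 0.15, which differed by -1.38 ± 0.23 (adjusted p = 0.0026). LOC102555978, with no name beyond its locus, gave 0.09 ± 0.08 and 0.71 ± 0.08. Inmt, a methyltransferase of lung fibroblasts, gave 0.53 ± 0.17 (adjusted p = 0.129) after repeated exposure, which differed from the single exposure by -1.27 ± 0.30. For Eln, Sparc and LOC102555978 the repeated-schedule value was close to 0, and the sign for Eln and Sparc turned under some alternatives. Exposure lasted 1 day in one schedule and 4 weeks in the other, so age at the last exposure cannot be told apart from schedule. Among the gene lists, cell division had a median of -0.45, or -0.20 without animal 43, after repeated and -0.96 after single exposure. Of its members 0 of 33 and 27 of 34 were called lower, against 0.0933% and 4.98% of all genes. Animal 5 of the single schedule at 1 day had an erythroid share of 1.64%, against 0.286 to 0.585% in the rest of its group. Without that rat the single-schedule median was -0.91, with 24 of 34 members called lower, against 664 of all 14922 genes. Glucocorticoid-responsive genes had 0.17 and 0.71, and collagens -0.14 and -0.39. These lists were not tested between schedules as groups.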

How the data were processed

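Raw gene counts were deposited by the authors as a table for each schedule with 30045 genes. Per the submitters' processing notes, the tools were HISAT2 2.1.0, HTSeq 0.6.1, Trimmomatic 0.35, SAMtools 1.8 and bcl2fastq 2.19, with build Rnor_6.0. How strand was set and which annotation was used are not given in the sources used here; reads of overlapping genes may be shared. Genes were filtered with filterByExpr, library sizes were normalized by TMM, and contrasts were tested with edgeR 4.0.16 (quasi-likelihood, two-sided, 4 group means, 24 libraries) in R 4.3.3, with Benjamini-Hochberg adjustment over all genes tested and a threshold of 0.05. Differences between schedules used all 48 libraries. Alternatives used DESeq2 1.42.0 and limma 3.58.1. The edgeR fit was also tried on simulated counts. These held no library whose makeup stood apart as that of animal 43 did, so the trial does not cover its effect. Standard errors came from the F statistic, and 3 counts corresponded to 0.438 to 1.95 CPM. Within groups 30 library pairs all differed, with chi-square values of 2.7 to 108 per gene. Named were the 12 genes with the smallest p in each direction (mean of at least 1 CPM, with a symbol), up to 4 per list and 5 per difference, and any other gene was picked after its values were seen. Some genes of the counts and lists are not reported here by name. The comparison and all 51 gene lists were chosen with earlier results of these data known.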

Additional observations from a re-analysis of the deposited data

Results flagged for a closer look

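Animal 43, 1 day after the last exposure to oil vapor, stood apart from its group in the share of counts in the 10 most abundant genes (12.2%) and in the erythroid share (5.02%). It was also the outlying rat for 25 genes, which were judged on the log2 scale and are given here as normalized CPM. It was high for Alox15 at 1725, Bcl11b at 58.1, Cd3d at 46.3, Cd79b at 60.8, Clec1b at 830, Hbb at 23775, Irf7 at 1029, Me1 at 69, Rfesd at 36.3, Rsad2 at 8831, Tk1 at 219 and Ube2c at 194. It was low for Ager at 711, Alpl at 65.3, Anpep at 137, Cnn1 at 10.9, Col3a1 at 1522, Col5a1 at 107, Cyp1b1 at 4.54, Ddah1 at 19.1, Eln at 253, Ppl at 165, Sparc at 1297, Sulf2 at 77.1 and Tgfbr2 at 471. Among the other rats, animal 46 at 1 day was low for Ptprt at 2.25 CPM. At 28 days animal 92 was high for Alb at 26.2 and Bhmt at 1.46 CPM, animal 96 for Krt15 at 3.95 CPM, animal 91 was low for Pdpn at 453 CPM, and animal 93 had 7.35% of its counts in the 10 most abundant genes. A rat was singled out when its gap to the nearest other rat as a share of the group's range exceeded Dixon's 95% critical value, which chance gives in about 1 in 20 groups. Of 228 pairs of gene and group checked, 26 were singled out at 1 day and 4 at 28 days.

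The change over time differed between oil vapor and air for Ptprt by 1.42 on the log2 scale (adjusted p = 0.0472, edgeR). Among the named genes, the change in oil vapor lungs was higher after repeated than after single exposure for Alox5 (0.638, adjusted p = 0.0193), Eln (1.19, adjusted p = 0.0026), Evpl (0.467, adjusted p = 0.0388), Gm2a (0.448, adjusted p = 0.0169), Lrrn4 (1.79, adjusted p = 0.0459), Sparc (0.674, adjusted p = 0.0041), Sulf2 (0.419, adjusted p = 0.0388) and Tgfbr2 (0.27, adjusted p = 0.0219). It was lower after repeated exposure for Dcn (-1.38, adjusted p = 0.0026), Dlg2 (-0.913, adjusted p = 0.0384), Inmt (-1.27, adjusted p = 0.0281), LOC102555978 (-0.623, adjusted p = 0.0026), Rfesd (-0.579, adjusted p = 0.0388), Rsrp1 (-0.456, adjusted p = 0.0223) and Sspn (-0.554, adjusted p = 0.0459). Each is a log2 difference from edgeR's test of the difference itself. Genes that were named for their change in the repeated schedule were picked on values that enter this difference.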

How the results depend on the processing

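The number of genes called between 28 and 1 day in oil vapor lungs, 51 in the reported fit, was 430 with all 48 libraries (186 higher, 244 lower), 44 with RLE size factors, 23 with no filter on low counts, 364 with DESeq2 (159 higher, 205 lower) and 232 with limma-voom and sample weights. It was 0 with edgeR on the 12 libraries compared (1486 at an unadjusted p below 0.05) and 0 against a minimum of 1.5-fold with edgeR (332 at an unadjusted p below 0.05), where DESeq2's own test against 0 called 364. Leaving out each rat in turn gave 4 (without animal 89) to 156 (without animal 43), and 8 without animal 45 or 92. Settings chosen after seeing the data gave 331 (DESeq2 without animal 43), 236 (limma-voom without it), 104 (without animals 43 and 44) and 100 (12 libraries without animal 43). In air, 49 became 191 with DESeq2, 244 with limma-voom, 123 on the 12 air libraries and 215 without animal 43, which shares its fit. For oil vapor minus air, 1 became 0 with RLE and 0 with no filter (edgeR), 108 with DESeq2 (17 higher, 91 lower), 3 with limma-voom and 0 to 4 with a rat left out, and, chosen after seeing the data, 89 (DESeq2 without animal 43), 6 (limma-voom without it) and 33 (without animals 43 and 44). The single schedule gave 1226 without animal 5, and repeated minus single 298 without animal 43. The cause of these moves was not tested. Over 114 genes the alternatives gave 1892 values on the same side of the threshold and in the same direction, 511 that lost their call, 186 that gained one and 16 of opposite sign. The last were all of uncalled values near 0: Eln (-0.165 to 0.0395 with a rat left out) and Sparc (-0.000155 with all 48 libraries, -0.0068 with RLE, -0.00527 with DESeq2, -0.056 with limma-voom, -0.0018 on the 12 libraries, -0.0986 to 0.0419 with a rat left out, -0.097 with DESeq2 without animal 43, -0.0789 with limma-voom without it, -0.071 without animals 43 and 44, -0.099 on the 12 libraries without animal 43). No paired analysis of 28 against 1 day was possible because the animal numbers differ between groups. Rats of the same place in both schedules were not treated as pairs. Genes of a few counts a rat, such as Kcna5, are limited by depth.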
